A study of Mus musculus with 6 samples.

Results

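The genes described here encode the proteins of the cytosolic ribosome and their close copies, chosen by symbol alone: every listed gene whose symbol is Rps or Rpl with a number and an optional a, x, l or l1, together with Rplp0, Rplp1, Rplp2 and Rpsa. The rule took 85 of the 16131 listed genes. Of these, 76 are core genes, 30 for the small subunit and 46 for the large subunit, and 9 are paralog or retrocopy symbols (Rpl3l, Rpl6l, Rpl7l1, Rpl22l1, Rpl32l, Rpl39l, Rps27l, Rps4l and Rps12l1). Skin was sampled from C57BL/6 mice on day 7 after a wound; diabetes had been induced in all of them with streptozotocin, which destroys the insulin-producing beta cells. The comparison is thus between treatments within diabetic wounded skin. Controls were given 10 µl of phosphate-buffered saline (PBS) per day, and the others the same volume of recombinant fibroblast growth factor 4 (rFGF4) at 100 ng/ml. Each group has 3 libraries of polyadenylated RNA. Whether these stem from different mice is not stated, and p-values therefore reflect the variation among libraries alone, part of which may be technical.

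The small ribosomal subunit reads the messenger RNA and the large subunit joins the amino acids, and each subunit is assembled in the nucleolus from ribosomal RNA and a near-fixed set of proteins with one copy of most of them. The genes for these proteins are among the most highly transcribed in any tissue, and their messenger RNAs begin with a run of pyrimidines, the terminal oligopyrimidine tract, through which mTOR and LARP1 set their translation and stability. In skin repair, growth and protein synthesis of keratinocytes and fibroblasts draw on this pool.

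The stretches around the start sites of 8 of these genes are shown to set genes at both ends of the response beside each other for a start tract and 3 motifs: Rps28, Rpl38, Rpl37 and Rps27, which were lower with rFGF4, Rps6, Rpl4 and Rpsa, which were not called, and Rps27l, a paralog of Rps27. Each runs 5′ to 3′ on the coding strand of its gene from 80 bases before the annotated start to 20 bases from it, in RefSeq GRCm38.p6. Capitals mark the pyrimidine stretch CTTTCC, the ETS-family core CCGGAAG and the YY1 core ATGGCG. All were searched on both strands, so that CGCCAT in Rps28 is the YY1 core read from the other strand. By the definition given after the stretches, Rpl38, Rps27, Rps27l and Rps6 have a pyrimidine start at the RefSeq start and the other 4 do not. This depends on the annotation. In GENCODE M21 the gene start is chr9:64173375 for Rpl4, within its pyrimidine run, chr15:5116645 for Rpl37, past the stretch shown, and chr9:120127689 for Rpsa, further upstream. A missing pyrimidine start here therefore does not show that the messenger RNA lacks the tract. The stretches of Rps6 and Rpsa hold none of the 3 motifs.
Rps28, chr17:33824543-33824642, minus strand: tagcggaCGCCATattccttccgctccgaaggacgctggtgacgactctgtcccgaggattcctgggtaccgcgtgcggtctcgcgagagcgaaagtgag
Rpl38, chr11:114668500-114668599, plus strand: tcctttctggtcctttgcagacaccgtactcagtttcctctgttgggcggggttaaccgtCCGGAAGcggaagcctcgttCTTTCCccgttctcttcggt
Rpl37, chr15:5116533-5116632, plus strand: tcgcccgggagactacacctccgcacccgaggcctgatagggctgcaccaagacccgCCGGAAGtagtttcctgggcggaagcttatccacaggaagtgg
Rps27, chr3:90213629-90213728, minus strand: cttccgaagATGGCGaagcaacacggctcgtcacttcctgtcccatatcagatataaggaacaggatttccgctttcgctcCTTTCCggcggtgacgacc
Rps27l, chr9:66946006-66946105, plus strand: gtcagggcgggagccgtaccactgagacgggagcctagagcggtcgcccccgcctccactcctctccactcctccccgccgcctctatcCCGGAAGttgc
Rps6, chr4:86857348-86857447, minus strand: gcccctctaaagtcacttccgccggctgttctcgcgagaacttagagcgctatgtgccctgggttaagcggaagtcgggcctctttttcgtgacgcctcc
Rpl4, chr9:64173307-64173406, plus strand: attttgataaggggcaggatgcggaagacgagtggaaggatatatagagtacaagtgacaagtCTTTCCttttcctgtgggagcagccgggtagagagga
Rpsa, chr9:120127686-120127785, plus strand: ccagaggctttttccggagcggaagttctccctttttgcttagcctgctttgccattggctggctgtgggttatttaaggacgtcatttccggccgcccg

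RefSeq windows of 300 bases, 250 of them before the start, were at hand for 62 of the 85 genes. Among 66 windows of core genes, CTTTCC was in 50.0%, CCGGAAG in 36.36%, ATGGCG in 28.79% and the TATA-box letters TATAAA in 9.091%. Over all 32851 windows of the table those shares were 26.56%, 8.858%, 8.928% and 13.62%. A terminal oligopyrimidine start, taken as a C followed by at least 4 pyrimidines within 5 bases of the annotated start and able to overlap CTTTCC, was in 43.94% of core windows and in 18.35% of all windows. Its share was 43.9% of 41 windows of 33 core genes called lower with rFGF4 and 44.0% of 25 windows of 23 core genes not called. CTTTCC was likewise in 48.78% and 52.0% of those windows and CCGGAAG in 39.02% and 32.0%, whereas ATGGCG was in 16 of the 41 windows and in 3 of the 25. These letter matches describe the windows and do not show that a factor binds there. The shares of pyrimidine starts depend on where RefSeq places each start.

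Messenger RNA of ribosomal protein genes was lower in the skin given rFGF4, and the size of the difference ran from a log2 fold change of -3.30 in Rps29 to no detectable difference in Rpsa and Rpl4. A level of 1 FPKM or more in at least 3 libraries was required for a test, and 84 genes reached it. Of these, 47 fell and 0 rose at a Benjamini-Hochberg adjusted p under 0.05 in limma over all 14676 tested genes, where 3.62% were called lower and 8.46% higher. At an unadjusted p under 0.05, 63 were lower and 0 higher, against 966 (6.58%) lower and 3747 higher among all 14676 tested genes. The median log2 fold change of the 84 genes was -1.09, beside 0.19 for all tested genes. In 67 of the 84 every rFGF4 library lay below every PBS library, as did 7.36% of all tested genes, and in the other 17 the groups overlapped. The remaining symbol, Rps12l1, was listed at 1.53 FPKM in PBS replicate 1 and at 0 in the other libraries, and was not tested. The count of 47 was 20, 24 and 26 without PBS replicates 1, 2 and 3, where 0.899%, 1.18% and 1.19% of all genes were called lower. It was 36, 51 and 25 without rFGF4 replicates 1, 2 and 3, where 1.9%, 3.39% and 1.67% were.

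**Figure D1:**
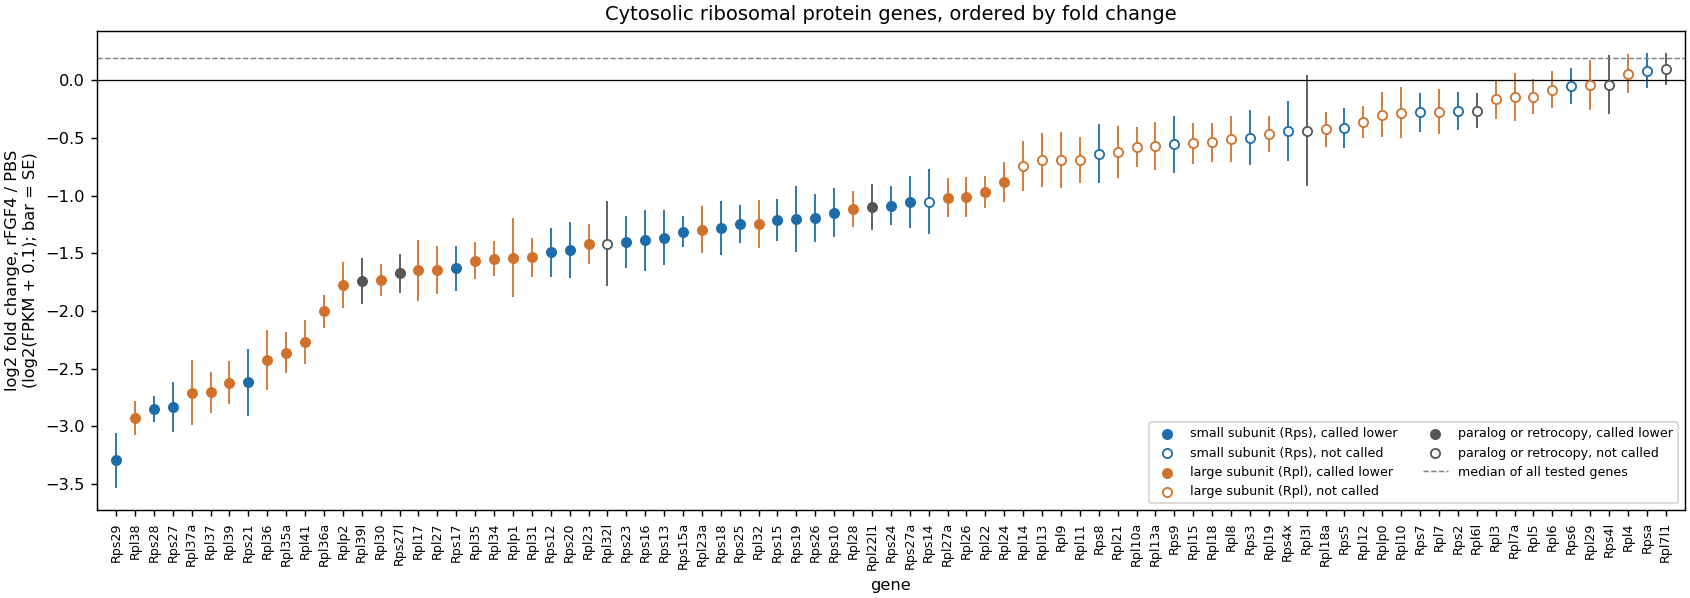
Log2 fold change of rFGF4 over PBS with its standard error (y axis) for 83 of the 84 tested ribosomal protein genes in order of size (x axis), coloured by subunit, filled where called lower by limma. The filled points reach from -0.88 in Rpl24 to -3.30 in Rps29, and no gene was called higher; the dashed line is the median of all tested genes, 0.19.

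FPKM is a level per transcript length and per sequenced fragments, so levels may be set side by side between genes, but the depth behind each value is unknown. Fold changes are on the log2(FPKM + 0.1) scale. In bulk RNA, fewer cells of a type and less RNA per cell cannot be told apart. The listed FPKM summed to between 304717 and 319807 per library. The summed level of the 76 core genes was 25111, 22054 and 21590 FPKM in PBS replicates 1 to 3 and 10830, 14939 and 12382 FPKM in rFGF4 replicates 1 to 3. Every rFGF4 sum was thus below every PBS sum. As a share of all listed FPKM the core genes made up 7.29% ± 0.62 (SD, n = 3) with PBS and 4.12% ± 0.72 (SD, n = 3) with rFGF4. Within the rFGF4 group, replicate 1 was the lowest of the 3 libraries for 54 core genes and replicate 2 the highest for 68. Within the PBS group, replicate 1 was the highest for 72. The median coefficient of variation of the core genes was 8.82% among the PBS libraries and 21.2% among the rFGF4 libraries. In the PBS libraries the most abundant core gene was 36.3 ± 6.44 (SD, n = 3) times the least abundant by FPKM, and in the rFGF4 libraries 68.6 ± 10.4 (SD, n = 3) times, with no overlap between the groups. The least abundant was Rpl21 in every PBS library and Rps28 in every rFGF4 library, so the ranges rest on different genes. With PBS the pseudogenes of Rpl21 made up 91.1% of the sum of gene and pseudogenes, so its own level is uncertain.

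Over all tested genes, 532 (3.62%) fell and 1241 (8.46%) rose, and the split depended on the scaling: with each library centred on its own median, which removes the shift of 0.19 in the median of all genes, 617 were lower and 138 higher. With that centring 50 ribosomal protein genes were lower, where 4.2% of all genes were. Of the tissue markers, all 6 keratinocyte and all 6 fibroblast markers were listed. Of the fibroblast markers 5 of 6 were higher with rFGF4 (2 with median centring, 0 with the length trend removed, and 0 to 3 with a library left out), with summed levels of 2666 to 3366 FPKM in PBS and 4836 to 5430 FPKM in rFGF4 libraries. Of the macrophage markers 2 of 5 were higher (1 with median centring), with sums of 97.1 to 143 FPKM and 147 to 202 FPKM. Of the 6 keratinocyte markers 0 were called, with sums of 2239 to 7453 FPKM and 2746 to 3849 FPKM. Of 5 neutrophil markers Ly6g was not listed and 0 were called, with sums of 473 to 2804 FPKM and 227 to 702 FPKM. The part of these cell types in the lower ribosomal protein level was not tested.

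In the small subunit, 20 of the 30 core genes fell, with a median log2 fold change of -1.20 over the 30. The strongest falls were in genes for very small proteins. Rps29, which encodes a zinc-binding protein of the head of the subunit and whose human counterpart is mutated in some families with Diamond-Blackfan anemia, lay at 295, 267 and 255 FPKM in the PBS libraries and at 20.9, 39.5 and 25.4 FPKM in the rFGF4 libraries. The groups were far apart, and the log2 fold change was -3.30 ± 0.24 (SE; adjusted p = 0.00164, limma). Rps28, a protein beside the channel by which the messenger RNA leaves, lay at 79.97, 83.2 and 74.4 FPKM with PBS and at 10.7, 11.6 and 10.3 FPKM with rFGF4. The 3 treated values lay close together, and the log2 fold change of -2.85 ± 0.11 (SE) had the smallest adjusted p of the family, 5.99e-04. Rps27, which carries a zinc finger, was at 159, 180 and 164 FPKM with PBS and at 21.8, 18.4 and 32.0 FPKM with rFGF4, with a log2 fold change of -2.83 ± 0.21 (SE; adjusted p = 0.00176). Here rFGF4 replicate 2 was the lowest treated library, unlike in most of the family. Rps21, a small protein of the subunit's outer face, was at 212, 195 and 190 FPKM with PBS and at 20.6, 47.1 and 34.9 FPKM with rFGF4, a log2 fold change of -2.62 ± 0.29 (SE; adjusted p = 0.00655).

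The most abundant small subunit genes fell less or were not called. Rps15, a protein of the subunit's head that is needed for export of its precursor from the nucleus, had the highest PBS mean, with 1237, 1063 and 1071 FPKM against 424, 590 and 452 FPKM with rFGF4. The groups did not overlap, and the log2 fold change was -1.21 ± 0.18 (SE; adjusted p = 0.0169). Rps23, which lies at the decoding centre and bears on the accuracy of reading, was at 549 ± 32.5 FPKM and 213 ± 59.2 FPKM (SD, n = 3; adjusted p = 0.0187, limma). Rps2, a protein near the channel through which messenger RNA enters, was at 683, 605 and 562 FPKM with PBS and at 459.5, 562 and 516 FPKM with rFGF4, with overlapping groups and a log2 fold change of -0.27 ± 0.16 (SE; adjusted p = 0.303). The calls of Rps15 and Rps23 were lost without any one PBS library and without rFGF4 replicate 3.

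Rps27a is made as a fusion of ubiquitin with a ribosomal protein, and so also supplies ubiquitin. It was at 225, 212 and 208 FPKM with PBS and at 75.8, 139 and 105 FPKM with rFGF4, and it fell by 1.05 ± 0.23 on the log2 scale (SE; adjusted p = 0.0345), a call that did not hold without PBS replicate 1, 2 or 3 or rFGF4 replicate 1 or 3. Rps6, the substrate of S6 kinase and the usual readout of mTOR activity at the protein level, was at 537, 462 and 465 FPKM with PBS and at 518, 476 and 419 FPKM with rFGF4. The groups overlapped, with a log2 fold change of -0.05 ± 0.16 (SE; adjusted p = 0.852). Rpsa, which is also known as a laminin receptor, was at 454, 390 and 382 FPKM with PBS and at 468, 433 and 394 FPKM with rFGF4. Its log2 fold change was 0.08 ± 0.15 (SE; adjusted p = 0.758), so the level differed by less than the spread between libraries.

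**Figure D2:**
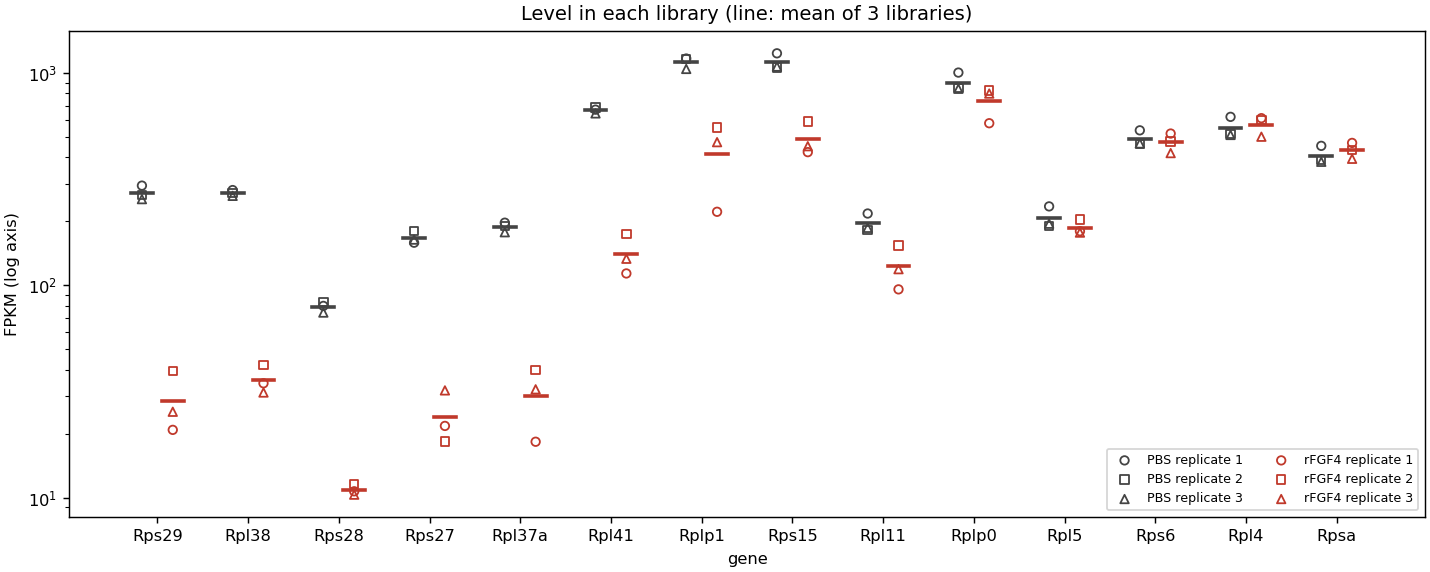
Level in FPKM on a log axis (y axis) of 14 ribosomal protein genes (x axis) in each PBS (grey) and rFGF4 (red) library, with the replicate shown by the symbol and the group mean by a line. Rps29 drops from a mean of 272 to 28.6 FPKM, whereas Rps6, Rpl4 and Rpsa stay at overlapping levels.

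In the large subunit, 24 of the 46 core genes fell, with a median log2 fold change of -0.93 over the 46. Rpl38, known in mice for its part in translating Hox messenger RNAs during axial patterning, was at 281, 273 and 264 FPKM with PBS and at 34.6, 42.1 and 31.3 FPKM with rFGF4. The log2 fold change was -2.93 ± 0.15 (SE; adjusted p = 9.57e-04), and the highest treated value was far below the lowest control. Rpl37a and Rpl37, small zinc-binding proteins, had the same log2 fold change of -2.71 (SE 0.28 and 0.18; adjusted p = 0.00547 and 0.00160). Rpl37a was at 197, 190 and 178 FPKM with PBS and at 18.3, 39.8 and 32.4 FPKM with rFGF4. Rpl37 was at 160, 142 and 135 FPKM and at 19.1, 28.3 and 20.2 FPKM. Rpl39, which lines the tunnel through which the new peptide leaves, was at 89.4, 85.7 and 82.5 FPKM with PBS and at 10.8, 17.95 and 13.7 FPKM with rFGF4 (log2 fold change -2.62 ± 0.19, SE; adjusted p = 0.00164). Rpl36 was at 450 ± 42.7 FPKM with PBS and 86.9 ± 28.2 FPKM with rFGF4 (SD, n = 3; adjusted p = 0.00581, limma). Rpl41, the shortest protein of the ribosome, was one of the 4 most abundant large subunit messages with PBS, at 671, 688 and 645 FPKM, and was at 114, 174 and 133 FPKM with rFGF4. It fell by 2.27 ± 0.19 on the log2 scale (SE; adjusted p = 0.00262).

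The 3 stalk proteins, which recruit the translation factors, gave unequal values. Rplp1 was at 1169, 1166 and 1044 FPKM with PBS, the highest mean of the family, and at 222, 555 and 472 FPKM with rFGF4. It fell by 1.54 ± 0.34 on the log2 scale (SE; adjusted p = 0.0379), with rFGF4 replicate 1 well below the other treated libraries, and the call was lost without any one PBS library and without rFGF4 replicate 3. Rplp2 was at 199, 192 and 175 FPKM with PBS and at 43.8, 71.2 and 53.2 FPKM with rFGF4, a log2 fold change of -1.78 ± 0.20 (SE; adjusted p = 0.00612). Rplp0, the base of the stalk, was at 1004, 847 and 842 FPKM with PBS and at 580, 828 and 799.5 FPKM with rFGF4. Its groups were adjacent without overlap, and the log2 fold change of -0.30 ± 0.20 (SE) did not pass the test (adjusted p = 0.341).

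Rpl5 and Rpl11 bind 5S ribosomal RNA and, when free, can hold Mdm2 and so raise p53. Rpl11 was at 218, 182 and 187 FPKM with PBS and at 95.7, 154 and 119 FPKM with rFGF4, below every control but not past the threshold (log2 fold change -0.69 ± 0.20, SE; adjusted p = 0.0674). It passed without rFGF4 replicate 2 (adjusted p = 0.0466) and with median centring. Rpl5 was at 235, 190 and 195 FPKM and at 180, 204 and 177 FPKM, with overlapping groups (log2 fold change -0.14 ± 0.15, SE; adjusted p = 0.565). Rpl23a, which lies at the mouth of the exit tunnel, was at 661 ± 49.3 FPKM with PBS and 274 ± 68.8 FPKM with rFGF4 (SD, n = 3; adjusted p = 0.0187, limma), a call that held in 1 of the 6 fits that each left out a library.

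Several large subunit genes had no detectable difference. Rpl4, whose protein reaches into the exit tunnel, was at 621, 515 and 510 FPKM with PBS and at 612, 599 and 501 FPKM with rFGF4, a log2 fold change of 0.06 ± 0.17 (SE; adjusted p = 0.849). Rpl29 was at 204, 175 and 180 FPKM and at 245, 168 and 143 FPKM, with the treated values on both sides of the controls (log2 fold change -0.04 ± 0.22, SE; adjusted p = 0.919). Rpl3, which reaches towards the peptidyl transferase centre, Rpl6, Rpl7 and Rpl10, which is needed for late maturation and joining of the subunits, had log2 fold changes of -0.17, -0.08, -0.27 and -0.28, with overlapping groups and adjusted p from 0.39 to 0.773. Over the 22 core large subunit genes that were not called, log2 fold changes ran from -0.74 to 0.06.

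**Figure D3:**
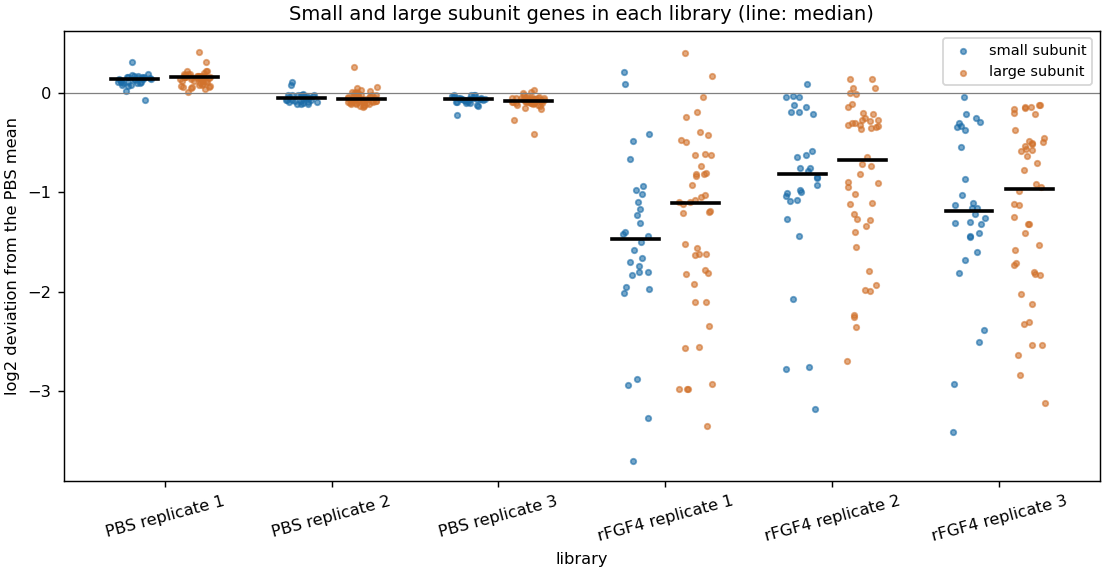
Log2 deviation of each core gene from its PBS mean (y axis) in each library (x axis), for 30 small subunit genes (blue) and 46 large subunit genes (orange), with the median as a line. The medians lie between -0.08 and 0.15 in the PBS libraries and between -1.47 and -0.68 in the rFGF4 libraries, lowest in replicate 1.

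Small and large subunit genes were set side by side within each library. The median FPKM of the core large subunit genes divided by that of the core small subunit genes was 1.09, 1.08 and 1.06 in the PBS libraries and 1.58, 1.28 and 1.32 in the rFGF4 libraries. The treated ratios of medians were all above the control ratios. Sums gave another picture. Large subunit sums were 15500, 13652.5 and 13263 FPKM with PBS and 6738, 9213 and 7655 FPKM with rFGF4. Small subunit sums were 9611, 8402 and 8327 FPKM and 4092, 5725 and 4727 FPKM. The ratios of these sums overlapped between the groups. The lower quartile of log2 fold changes was -1.63 for large and -1.40 for small core genes, the reverse order of the medians. The median deviation from the PBS mean in rFGF4 replicates 1, 2 and 3 was -1.47, -0.82 and -1.19 for small subunit genes and -1.11, -0.68 and -0.97 for large subunit genes on the log2 scale. With the paralogs included, 21 of 32 small and 26 of 52 large subunit genes were called lower. Those counts were 6, 8 and 9 for the small and 14, 16 and 17 for the large subunit without PBS replicates 1, 2 and 3, and 9 and 16 without rFGF4 replicate 3. Whether the subunits differ was not tested over these chosen genes.

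The subunits were next set side by side within classes of coding length. Coding length is that of the longest principal transcript in GENCODE M21, without its untranslated ends. Below 300 bases 4 of 4 small and 5 of 5 large core genes fell, with medians of -2.84 and -2.71. From 300 to below 450 bases 11 of 11 and 16 of 16 fell, with medians of -1.31 and -1.54. From 450 to below 600 bases 5 of 8 small and 3 of 11 large genes fell, with medians of -1.10 and -0.62. From 600 to below 900 bases 0 of 7 and 0 of 11 were called, with medians of -0.41 and -0.51. The 3 core genes of 900 bases or more, Rpl3, Rpl4 and Rplp0, belong to the large subunit and were not called.

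The order of the fold changes followed coding length. Spearman's rho between coding length and log2 fold change was 0.911 across the 76 core genes, 0.878 across the 30 small and 0.899 across the 46 large subunit genes. It was 0.393 across 12528 other tested genes, and all of these values are across genes of the same 6 libraries, which are not independent replicates. With whole transcript length rho was 0.569 across core genes and 0.496 across 14107 other genes. This length too is that of the longest principal transcript. It is 5179 bases for Rps15a and 3706 for Rps20, which have 390 and 357 coding bases. Whether these long forms were the ones expressed was not tested. With the PBS mean as the measure of abundance it was 0.249 across core genes. Rpl29 and Rpl17, both chosen after their values were seen, were the 2 ends of the class from 450 to below 600 bases. Rpl29, with 480 coding bases, had a log2 fold change of -0.04, and Rpl17, with 552, of -1.65.

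Short genes outside the family were lower as well, by smaller amounts. Among other tested genes with under 300 coding bases, 88 of 306 (28.8%) fell, with a median log2 fold change of -0.44. From 300 to below 450 bases 96 of 606 (15.8%) fell, with a median of -0.23. From 450 to below 600 bases 22 of 776 (2.84%) fell, with a median of 0.02. From 600 to below 900 bases 0.392% of 1786 other genes fell, and their median was 0.10, beside -0.43 for the 18 core genes of that class. RNA integrity of each library is not given beyond a stated minimum of 7.0 for the integrity number, and the part of RNA integrity or of the removal of short inserts in this trend was not tested.

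After the trend with transcript length had been subtracted from each library, 34 of the 84 genes were lower, where 1.61% of 14191 genes were called lower, and their median log2 fold change was -0.75. Rps29, Rpl38 and Rps28 then had log2 fold changes of -2.59, -2.30 and -2.21 (adjusted p = 0.00169, 0.00111 and 0.00111). Rps15a and Rps20, with long annotated transcripts, moved the other way, from -1.31 to -1.69 and from -1.47 to -1.78. Their values after this subtraction depend on that annotation. After the trend with coding length had been subtracted instead, an alternative chosen after seeing the data, 40 of 81 were lower, where 1.15% of 12609 genes were called lower, with a median of -0.92. All 34 and all 40 were among the 47. Rplp1 and Rps27a were not called under either subtraction, and Rps15, Rpl23a and Rpl22l1 were lost with transcript length but not with coding length.

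**Figure D4:**
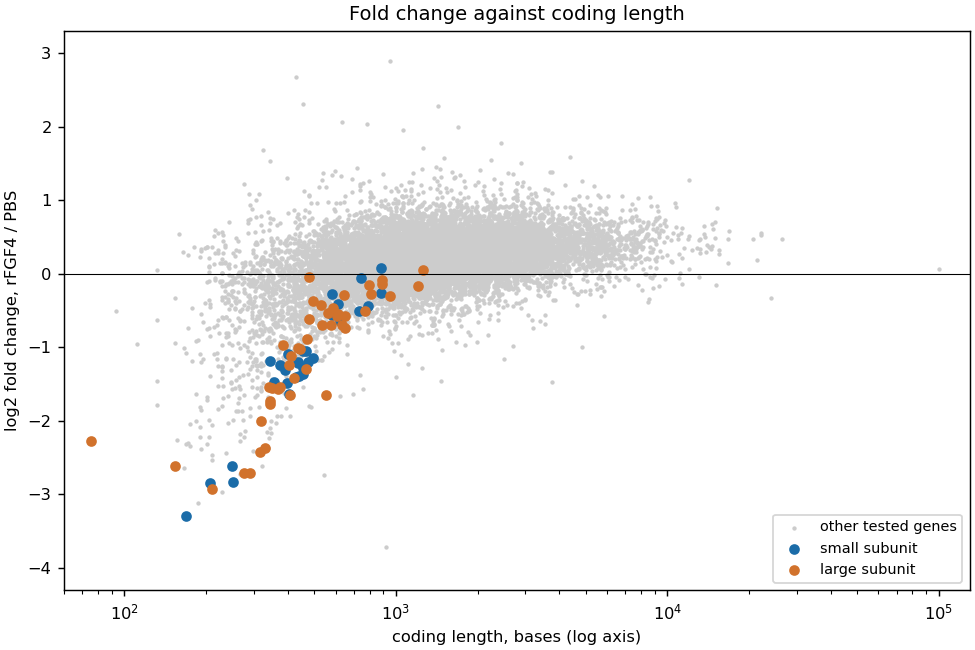
Log2 fold change of rFGF4 over PBS (y axis) against coding length in bases on a log axis (x axis), for 30 small (blue) and 46 large (orange) subunit core genes and the other tested genes (grey). The 9 core genes under 300 bases lie between -3.30 and -2.27, and the 18 from 600 to below 900 bases between -0.74 and 0.08.

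With PBS each of the 8 tested paralogs and retrocopies was less abundant than its core gene, from a mean of 0.461% for Rpl32l in Rpl32 to 39.2% for Rps27l in Rps27. Rps27l, which p53 can induce and whose coding sequence has 76.2% identity with that of Rps27 over 252 aligned bases, was at 69.1, 64.3 and 63.1 FPKM with PBS and at 16.5, 25.2 and 20.5 FPKM with rFGF4. It fell by 1.67 ± 0.17 on the log2 scale (SE; adjusted p = 0.00528). As a share of Rps27 it was 43.5%, 35.7% and 38.5% in the PBS libraries and 75.9%, 137% and 64.0% in the rFGF4 libraries, so that in rFGF4 replicate 2 it was above Rps27 itself. Rpl39l, known from testis and 85.0% identical to Rpl39 in coding sequence, was at 9.26, 6.24 and 7.44 FPKM with PBS and at 1.82, 2.63 and 2.19 FPKM with rFGF4 (log2 fold change -1.74 ± 0.20, SE; adjusted p = 0.00728). Its share of Rpl39 was 8.89% ± 1.55 with PBS and 15.8% ± 1.10 with rFGF4 (SD, n = 3). Of 4 germ cell markers 0 were listed.

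Rpl22l1, which can replace Rpl22 in the ribosome, fell with it. Rpl22l1 was at 22.3, 20.4 and 19.9 FPKM and at 7.62, 13.05 and 9.18 FPKM (log2 fold change -1.10 ± 0.20, SE; adjusted p = 0.0243). Rpl22 was at 83.2 ± 8.14 FPKM and 42.5 ± 4.31 FPKM (SD, n = 3; adjusted p = 0.0149, limma). The share of Rpl22l1 in Rpl22 was 25.1% ± 1.13 with PBS and 23.1% ± 4.11 with rFGF4 (SD, n = 3). The calls of both were lost without PBS replicate 1, without PBS replicate 2 and without rFGF4 replicate 3, and that of Rpl22l1 also without PBS replicate 3 and without rFGF4 replicate 1.

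Rpl7l1, an assembly-associated relative of Rpl7 with 64.8% coding identity, was at 21.2, 18.8 and 17.1 FPKM with PBS and at 17.96, 22.7 and 20.5 FPKM with rFGF4. Its log2 fold change of 0.10 ± 0.14 (SE; adjusted p = 0.676) was the highest of the family and was negative with median centring. Rpl3l replaces Rpl3 in striated muscle. It was at 17.6, 5.99 and 13.7 FPKM with PBS and at 7.77, 5.31 and 13.9 FPKM with rFGF4, with overlapping groups (adjusted p = 0.578). Skeletal muscle markers, 6 of 6 listed and 0 called, summed to 4072, 1938 and 2426 FPKM and to 2124, 1266 and 2544 FPKM in the same order of libraries, so that replicate 2 was the lowest of its group in both measures. Rpl10l was not among the listed genes. Rps4l, annotated as a transcribed pseudogene, was at 35.2 ± 8.17 and 34.7 ± 10.6 FPKM (SD, n = 3), beside 440 ± 50.2 and 335 ± 104 FPKM for Rps4x, the X-linked parent; neither was called (adjusted p = 0.934 and 0.292, limma). The retrocopies Rpl6l and Rpl32l share 98.7% and 97.2% of their bases with their parents, so their values cannot be cleanly told from those of Rpl6 and Rpl32. Rps12l1 is identical to the coding sequence of Rps12 over 396 bases.

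An exact two-sided permutation test compared the paralog to parent ratio of 8 pairs between the groups. The smallest p that 3 against 3 libraries allow is 0.1. It was reached by Rps27l, Rpl39l, Rpl7l1 and Rpl6l (adjusted p = 0.2 over the 8 pairs), of which the first 3 had higher shares in every rFGF4 library and Rpl6l lower ones. The other 4 pairs had p from 0.3 to 0.6.

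**Figure D5:**
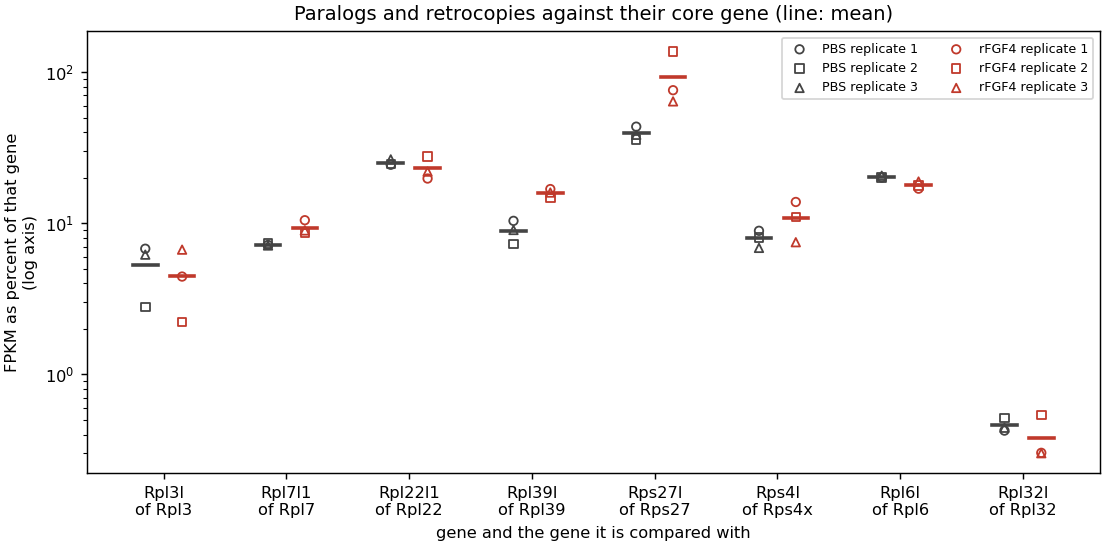
FPKM of 8 paralogs or retrocopies as a percent of their core gene on a log axis (y axis), by pair (x axis), in each PBS (grey) and rFGF4 (red) library, with the group mean as a line. Rps27l goes from a mean of 39.2% of Rps27 with PBS to 92.3% with rFGF4, and Rpl22l1 overlaps between the groups.

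Ribosomal protein genes have many processed pseudogenes with nearly the same sequence, and how reads were shared between them is not stated. The table lists 132 named pseudogenes of these genes, taken as symbols made of the gene's symbol followed by -ps. They belong to 49 of the 85 genes, and 118 of them were tested, of which 53 were called lower and 4 higher, with a median log2 fold change of -1.06. Of all tested genes 3.62% were called lower and 8.46% higher, with a median of 0.19. For 7 genes the pseudogenes summed to more FPKM than the gene itself with PBS, and the share reached 91.1% in Rpl21 and 76.6% in Rps12. When each gene was summed with its named pseudogenes, a check added after seeing the data, 47 of 84 were again lower, where 3.28% of 14558 genes were called lower, and 45 of these were among the 47 called alone. Rpl17 was the clearest exception and was chosen for that. Alone it fell by 1.65 ± 0.27 on the log2 scale (SE; adjusted p = 0.0196), from 269, 197 and 193 FPKM to 61.8, 100 and 53.3 FPKM. Its 6 listed pseudogenes summed to a mean of 537 FPKM with PBS and 773 FPKM with rFGF4, and 3 of them, Rpl17-ps5, Rpl17-ps8 and Rpl17-ps9, were called higher. The sum of gene and pseudogenes had a log2 fold change of 0.16 (adjusted p = 0.492), so the fall of Rpl17 is uncertain. Rps29, Rps28, Rps27, Rpl37 and Rpl37a have no pseudogene listed under a -ps symbol. Rpl38 summed with its single one kept a log2 fold change of -2.93. Copies under other symbols were not searched for, so sharing of reads with them is not excluded for these genes.

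Ribosomal protein genes that the symbol rule does not take were also examined. Rpl36al, a close relative of Rpl36a with 318 coding bases, was at 114 ± 11.3 and 45.3 ± 5.84 FPKM (SD, n = 3). Fau, a fusion of a ubiquitin-like protein with a small subunit protein, was at 346 ± 14.9 and 156 ± 28.3 FPKM (SD, n = 3). Rpl36al fell by 1.33 and Fau by 1.16 on the log2 scale (adjusted p = 0.00639 and 0.0160, limma). The call of Fau was lost without any one PBS library and without rFGF4 replicate 3. Rps3a1 was at 870 ± 55.3 and 705 ± 151 FPKM and Rack1, the scaffold of the small subunit head, at 154 ± 17.4 and 129 ± 26.3 FPKM (SD, n = 3), and neither was called (792 and 951 coding bases; adjusted p = 0.321 and 0.383, limma).

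Genes that build and regulate ribosomes are given as counts, and their difference from the ribosomal protein genes was not tested. Of 26 ribosome assembly genes 2 fell and 0 rose, where 3.62% of all tested genes were called lower and 8.46% higher. The median log2 fold change of the 26 was 0.12 beside 0.19 for all genes. Both that fell, Nop10 (28.8 ± 1.97 to 8.12 ± 2.57 FPKM) and Gar1 (17.7 ± 4.08 to 5.70 ± 1.504 FPKM; SD, n = 3), encode core proteins of the small nucleolar particles that convert uridine to pseudouridine, with 192 and 693 coding bases. The other core proteins of that particle were not called: Dkc1 had a log2 fold change of 0.33 (adjusted p = 0.411) and Nhp2 of -0.40 (adjusted p = 0.236, limma). The call of Gar1 was lost without PBS replicate 1 and without PBS replicate 3. Rrn3, the factor that brings RNA polymerase I to ribosomal DNA, was at 8.45 ± 0.89 and 10.7 ± 0.51 FPKM (SD, n = 3) and did not pass (adjusted p = 0.103, limma). Of 13 translation factor and related genes whose messages carry the same start tract, 0 were called by limma, and the median log2 fold change was -0.003. At an unadjusted p under 0.05, 2 of the 13 were lower and 1 higher, beside 966 lower and 3747 higher among all 14676 tested genes. Eef1a1, the elongation factor that delivers aminoacyl-tRNA, had the highest level of them, at 2265 ± 107 and 2394 ± 136 FPKM (SD, n = 3), and Tpt1 was at 810 ± 24.9 and 556 ± 90.3 FPKM.

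Of 15 genes of the mTOR and LARP1 pathway 0 fell and 2 rose, a share near the 8.46% of all tested genes that were called higher. Larp4, which binds messenger RNA tails, was at 4.14, 4.11 and 4.07 FPKM with PBS and at 7.23, 5.84 and 6.04 FPKM with rFGF4. Rps6kb1, the kinase of Rps6, was at 6.35, 5.81 and 7.07 FPKM and at 10.96, 9.66 and 8.67 FPKM. In both genes the groups did not overlap (log2 fold change 0.61 and 0.60; adjusted p = 0.0326 and 0.0397, limma). Neither was called without any one of the 6 libraries, with median centring (adjusted p = 0.128 and 0.127) or with the length trend removed (adjusted p = 0.457 and 0.447). Mtor itself was at 3.63 ± 0.12 and 4.604 ± 0.112 FPKM (SD, n = 3) and did not pass (adjusted p = 0.101, limma). Among 78 mitochondrial ribosomal protein genes, whose products form the separate ribosome of that organelle, 14 (17.9%) fell and 0 rose, beside 3.62% of all tested genes lower, with a median log2 fold change of -0.20. With the length trend removed 6 were lower, beside 1.61% of all genes. The count was 12 without rFGF4 replicate 2, beside 3.39% of all genes. Without any one of the other libraries it was 2 of 78, near the 0.899% to 1.9% of all genes lower in those fits.

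Of the 85 genes, 70 were lower in the authors' deposited table and 0 higher at a q-value under 0.05, where 6.63% of all listed genes were lower. All 47 genes called by limma were among the 70. In the authors' deposited table Rps28 and Rpl38 had the smallest q-values of all listed genes, with Rps29 at rank 13, and 9 ribosomal protein genes were among the 20 smallest p-values.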

How the data were processed

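Polyadenylated skin RNA was broken into fragments and turned into dUTP libraries, which keep the strand, with inserts of 300 ± 50 bases, sequenced as pairs of 150 bases, per the labels' protocols. The tools named in the submitters' processing notes are edgeR, fastp, HISAT2 and StringTie, and the build is GRCh38, without versions or roles. That build is human whereas the organism is mouse, so the reference used is uncertain, as is whether counting used the strand. The deposited values were read as FPKM made by the authors, from their values and StringTie; the header names no unit. The authors deposited with them a p-value, a q-value, a fold (the ratio of group means) and its log2 per gene. Genes are listed where at least 1 library passed 1 FPKM. Depth is unknown, since FPKM keep no counts, so precision is known only from the spread between libraries. All 6 columns of values matched a sample, and 0 had none.

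limma-trend with robust variances compared log2(FPKM + 0.1) between the groups, two-sided and without covariates, for genes that reached 1 FPKM in 3 or more libraries, with Benjamini-Hochberg adjustment over all tested genes, threshold 0.05 (R 4.3.3, limma 3.58.1, statmod 1.5.0, Python 3.11.15, SciPy 1.17.1, Biopython 1.88). Lengths and coding lengths came from GENCODE M21 on GRCm38 (15482 symbols matched), and start-site sequences from RefSeq GRCm38.p6. Length trends were removed by loess (span 0.3) in each library. The scripts were tested on simulated data. The members, gene lists and markers were chosen with earlier results of these data known. Named in full were the paralog pairs, the 4 most abundant genes and the 5 lowest and 4 highest fold changes per subunit, a fixed set of 12 genes of known role, and up to 3 genes per list; any other gene named was chosen after its values were seen. Some genes that the rule names are not reported here. Alternatives were other pseudocounts and filters, each library left out, the replicate number as a block, other scalings, length trends and sums with pseudogenes. The labels give no batch.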

Additional observations from a re-analysis of the deposited data

How the results depend on the processing

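Ribosomal protein genes called lower stayed between 34 and 50 of those fitted under other pseudocounts, filters, scalings, length trends and the pseudogene sums, and 20 were called lower in every one of the 20 fits. Leaving out 1 library gave 20 to 51 such genes, 6 to 22 for the small and 14 to 29 for the large subunit, and 156 to 890 calls over all genes, beside 1773 with 6 libraries. With the replicate number as a block 24 ribosomal protein genes were lower (8 small, 16 large) and 233 genes were called in all. Deviations from the group mean in samples of the same number had Pearson's r of 0.183, -0.067 and -0.125, and samples of different numbers gave -0.334 to 0.351. As each mean is over only 3 libraries, these values cannot show whether the numbers pair the libraries. Over all genes the calls were 755 with median centring, 749 with quantile normalization, 306 and 295 with the length trend removed (fitted with and without the ribosomal protein genes), and 186 and 186 with the coding length trend removed. With the length trend removed 13 small subunit genes were lower in both forms. The median log2 fold change was -0.86 with quantile normalization and -0.75 and -0.79 with the length trend removed. The cause of these moves was not tested.

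Among the 37 genes taken by the naming rule, sign changes were seen only in genes that were not called; Rpl17, named for its pseudogenes and called lower alone, turned to 0.16 when summed with them. Quantile normalization gave log2 fold changes of 0.10 in Rpl10, 0.26 in Rpl29, 0.14 in Rpl3, 0.12 in Rpl5, 0.24 in Rpl6, 0.0633 in Rpl7, 0.0377 in Rplp0, 0.16 in Rps2 and 0.37 in Rps6. Median centring gave -0.12 in Rpl4, -0.0845 in Rpl7l1 and -0.10 in Rpsa. Removing the length trend gave 0.00261 in Rpl10, and, with and without the ribosomal protein genes in the fit, 0.34 and 0.31 in Rpl29, -0.14 and -0.14 in Rpl7l1, 0.19 and 0.17 in Rps4l, 0.22 and 0.20 in Rps6, and -0.0593 and -0.0609 in Rpsa. The coding length trend gave 0.0561 and 0.0300 in Rpl29, -0.18 and -0.18 in Rpl4, -0.0221 and -0.0281 in Rpl7l1, and -0.0853 and -0.0879 in Rpsa. Leaving out 1 library gave -0.26 to 0.13 in Rpl29, -0.27 to 0.14 in Rps4l and values up to 0.0291 in Rps6. Over those 37 genes and all alternatives, 65 results lost the threshold and 2 gained it.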
